A study of Hydra vulgaris with 5 samples.

Results

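Gland cells of the freshwater polyp Hydra vulgaris were chosen by the counts of their digestive enzyme transcripts in single-cell libraries. A cell barcode, the tag that marks the transcripts of 1 droplet, was taken as a gland barcode when it had at least 200 detected genes, at least 10 counts on the enzyme entries, and at least 2% of its counts on them. The enzyme entries are the entries of the count tables described as chymotrypsin, trypsin, antistasin, Dlp1 or lipase, phospholipases left out. Antistasin is a protease inhibitor and not an enzyme, but the rule counts it among the enzyme entries. Of 5456 barcodes with at least 200 genes, 74 met the rule. The remaining 5382 are called other barcodes below, and 13993 barcodes were deposited. Since enzyme counts chose the barcodes, the enzyme values are descriptions, and none is given with a test.

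All animals were of strain 105, and Pronase E, a protease mixture, was used to free the cells. Hypostome, the cone around the mouth, gave 2 libraries, and bisected animals left to regenerate it for 0 h, 4 h and 12 h gave 1 library per time. Transcript 3′ ends were sequenced from droplets with the Bio-Rad SureCell kit. The labels do not say how many animals were pooled or whether the hypostome libraries came from separate animals, so the spread between these libraries may be technical. The p-values below come from fits that share the estimate of spread over entries, so they do not measure each entry's own spread between libraries. The 0 h library is the freshly cut baseline for the later times, and each time point has no replicate.

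Gland cells lie between the epithelial cells of the inner layer of the Hydra body wall and arise from interstitial stem cells. Zymogen gland cells, found along the body column, secrete digestive enzymes into the gut cavity, while mucous gland cells are typical of the hypostome. Chymotrypsin and its elastase relatives are serine proteases, astacins are zinc metalloproteases, and antistasin is a serine protease inhibitor first known from leeches that Hydra gland cells make in large amounts. Dickkopf proteins are secreted inhibitors of Wnt signalling, and in Hydra they are known from gland cells of the body column.

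The barcodes with at least 200 genes held between 55274 and 2495372 counts per library. Gland barcodes held 1392 counts in hypostome 1, 9809 in hypostome 2, 32320 at 0 h and 6250 at 4 h. Depth per barcode did not set gland and other barcodes far apart at 0 h, with medians of 463 and 441 counts, or at 4 h, with 770 and 741. In hypostome 1 the medians were 392 counts in gland barcodes and 806 in other barcodes, and in hypostome 2 they were 498 and 610. The entry MSTRG.22171, which has no described match, took 25.4% of the counts of gland barcodes and 35.7% of those of other barcodes at 4 h, and between 4.77% and 13.1% in either class in hypostome 1, hypostome 2 and the 0 h library. The deposited barcodes are numbered within each library, so barcodes shared between libraries could not be counted. Scrublet, a doublet caller, marked 44 barcodes, and 0 of them were gland barcodes.

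Under the rule as given, gland barcodes made up between 2.57% and 2.98% of hypostome 1, hypostome 2 and the 0 h library and a smaller share at 4 h. They were 3 of 110 barcodes in hypostome 1 (2.73%, exact 95% binomial interval 0.566 to 7.76) and 5 of 168 in hypostome 2 (2.98%, 0.973 to 6.81). At 0 h 60 of 2332 met the rule (2.57%, 1.97 to 3.30), against 6 of the 2782 at 4 h (0.216%, 0.0792 to 0.469). The 12 h library had 0 among 64 (exact 95% interval 0 to 5.60), where 3 barcodes would be 4.69%. The interval at 4 h lies below that at 0 h, and the 12 h library is too small to place. The mean share was 2.85% in the hypostome and 0.93% in the regenerating libraries, with 12 h counted as 0%, a difference of 1.92 percentage points. This is a description, since the 5 libraries can be split in 10 ways and an exact permutation p could not go below 0.1. Intervals and floors cover counting error only.

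**Figure D1:**
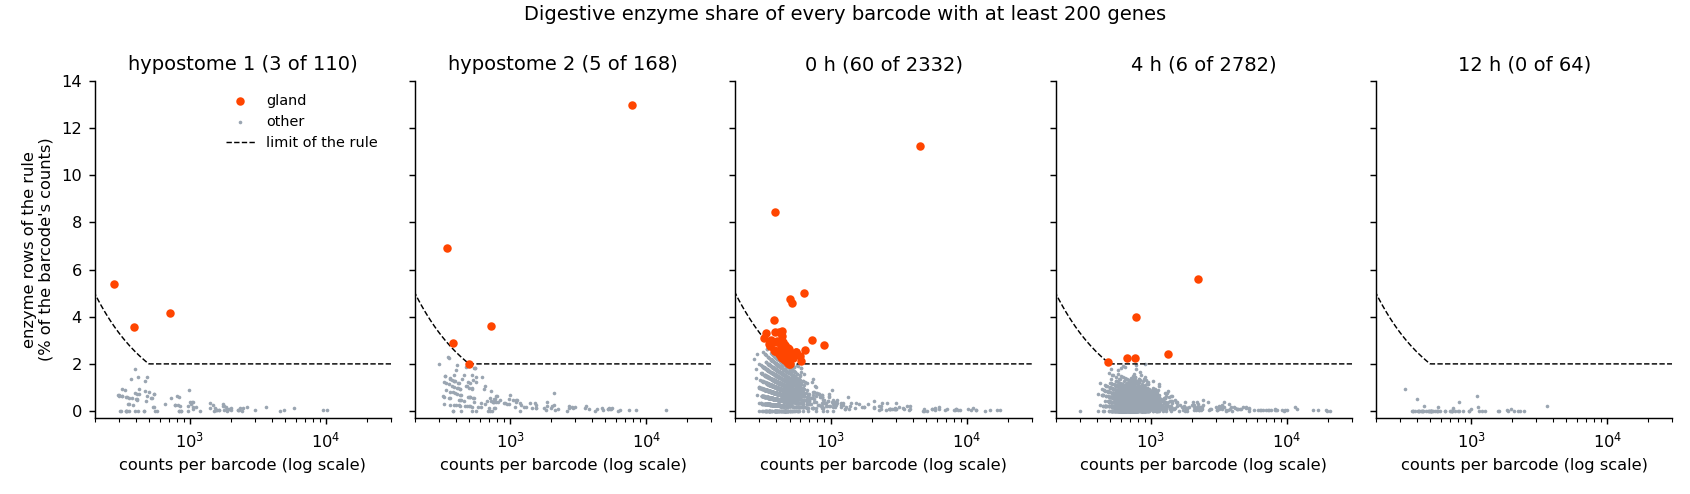
Share of each barcode's counts on the enzyme entries (vertical axis, percent) against its total counts (horizontal axis, log scale), 1 panel per library, for gland barcodes (large points) and other barcodes with at least 200 genes (small points); the dashed line is the limit of the rule. The barcodes at 12.98% in hypostome 2, 11.2% at 0 h and 5.61% at 4 h stand apart from a cloud that the limit crosses at 0 h and skirts at 4 h.

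The order of the hypostome and 0 h shares changed with the form of the rule. With a limit of 5%, 0.909% of barcodes in hypostome 1 and 1.19% in hypostome 2 met it, against 0.129% at 0 h. With at least 20 enzyme counts the shares were 0.909% and 1.79%, against 0.3% at 0 h. With each barcode thinned to 200 counts they were 4.55% and 7.74%, below the 12.6% at 0 h.

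At 4 h more barcodes met the count limit without the percent limit than at 0 h. At 4 h 53 barcodes had at least 10 enzyme counts but less than 2% of their counts on them, against 14 at 0 h. With MSTRG.22171 left out of every total, 41 of 2765 barcodes at 4 h met the rule (1.48%), 69 of 2303 at 0 h (3%), 7 of 165 in hypostome 2 and 3 of 110 in hypostome 1. With a limit of 1%, 48 barcodes met it at 4 h and 71 at 0 h. With each barcode thinned to 200 counts, the 2% limit alone was met by 64 of 2782 barcodes at 4 h (2.30%) and by 293 of 2332 at 0 h (12.6%). The share was thus lower at 4 h than at 0 h under each of these forms of the rule, by differing amounts.

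**Figure D2:**
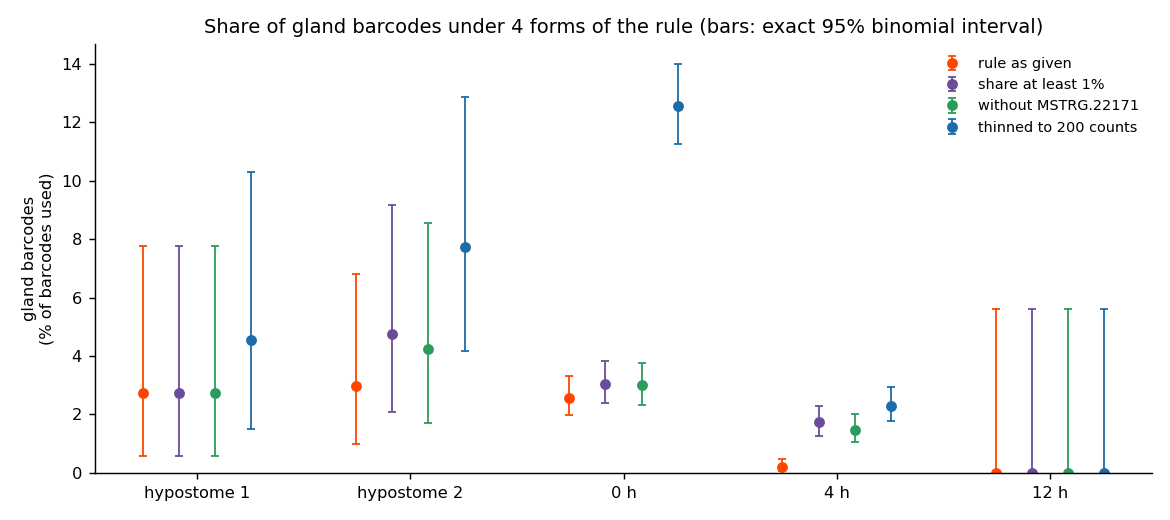
Share of gland barcodes in each library (vertical axis, percent of barcodes used) under 4 forms of the rule, of which the thinned form has no count limit. Points are shares and bars the exact 95% binomial interval. At 4 h the share was 0.216% under the rule as given and 1.48% without MSTRG.22171, while 0 of 64 barcodes met any of the 4 forms at 12 h.

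Most gland barcodes sat close to the limits, and in hypostome 2, at 0 h and at 4 h 1 barcode carried far more enzyme counts than the rest. The median gland barcode had 12 enzyme counts and 2.62% of its counts on enzymes. Of the 74, 21 had exactly 10 enzyme counts, 42 had 10 to 12, 27 lay under 2.5% and 7 reached 5%. Just outside the count limit were 23 barcodes with 9 enzyme counts and at least 2%, all at 0 h. Just outside the percent limit were 17 barcodes with at least 10 counts and 1.8% to 2%, against 10 just inside it, between 2% and 2.2%.

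The barcode with the most enzyme counts in each library is called its leading barcode. In hypostome 2 it held 7864 counts, of which 989 were chymotrypsin and 26 antistasin (12.98% enzyme). At 0 h it held 4511 counts, with 205 chymotrypsin and 297 antistasin (11.2%). At 4 h it held 2229 counts, with 79 chymotrypsin and 46 antistasin (5.61%). The leading barcode of hypostome 1 was small, with 721 counts, 17 of chymotrypsin and 13 of antistasin, and its enzyme share of 4.16% was below the 5.38% of the second barcode. These barcodes thus differed in which family of the rule led, chymotrypsin by far in hypostome 2 and the inhibitor antistasin at 0 h. The next barcodes had 15 and 14 enzyme counts in hypostome 1, between 10 and 26 in hypostome 2, at most 33 at 0 h, and 32, 31, 17, 15 and 10 at 4 h.

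Chymotrypsin and antistasin were found together in most gland barcodes. Of the 74, 73 had a chymotrypsin count, 60 an antistasin count, 59 both and 19 a lipase count. Chymotrypsin was the larger family in 61, antistasin in 11, and they were equal in 2. Antistasin led in 6 of 60 barcodes at 0 h and in 1 of 6 at 4 h, and in 4 of the 8 hypostome barcodes. Across the 74 barcodes the chymotrypsin and antistasin shares of a barcode's counts had a Spearman correlation of -0.56 and a Pearson correlation of -0.16. This is a description only, since a barcode just over the limit that holds more of one family must hold less of the other. The joint presence also follows in part from the rule, which asks for at least 10 counts. Single entries were common in other barcodes too. Chymotrypsinogen B-like Sc4wPfr_41.g30759 was in 26.2%, 51.5%, 78.2% and 59.0% of those of both hypostome libraries, the 0 h and the 4 h library. Antistasin Sc4wPfr_227.g25773 was in 48.6%, 60.1%, 29.0% and 36.5%.

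**Figure D3:**
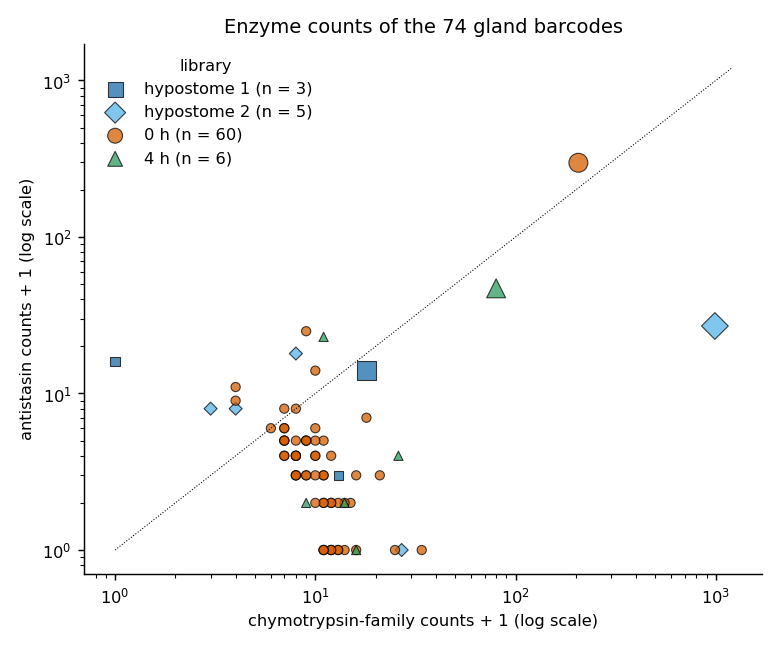
Antistasin counts (vertical axis) against chymotrypsin-family counts (horizontal axis) of the 74 gland barcodes, both plus 1 on log scales, with symbols by library; large symbols are the leading barcodes and the dotted line marks equal counts. The leading barcode of hypostome 2 lies at 989 chymotrypsin and 26 antistasin counts, that of 0 h at 205 and 297, and the cloud of small symbols near the limit of 10 counts.

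The digestive serine proteases came almost wholly from a pair of entries. The rule matched 56 entries, 20 of chymotrypsin, 33 of lipase and 3 of antistasin, and 0 of trypsin or Dlp1. Chymotrypsin supplied 74.6% of the 2666 enzyme counts of gland barcodes, antistasin 24.1% and lipase 1.24%. The chymotrypsinogen B-like entry Sc4wPfr_41.g30759 alone had 1195 gland counts in 71 barcodes, of which 386 lay outside the leading barcodes. In CPM (counts scaled to the same total in each class), it had 11494, 64227, 14171 and 14560 in gland barcodes of both hypostome libraries, the 0 h and the 4 h library, and 237, 516, 2767 and 1218 in other barcodes. Gland barcodes were highest in hypostome 2, where 612 of the 630 counts lay in the leading barcode, whereas other barcodes were highest at 0 h. Without the leading barcodes the gland levels of Sc4wPfr_41.g30759 were 5961, 9255, 11579 and 10445 CPM, highest at 0 h. The elastase 3B-like entry Sc4wPfr_41.g30764 was likewise highest in hypostome 2 among gland barcodes and at 0 h among other barcodes, with 7902, 38128, 7054 and 7040 CPM in gland barcodes and 140, 439, 1593 and 693 CPM in other barcodes. In hypostome 2 the leading barcode held 357 of its 374 gland counts, and without the leading barcodes the levels were 10432, 8740, 6041 and 3979 CPM, highest in hypostome 1.

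Antistasin also rested on a pair of entries. Sc4wPfr_227.g25773 had 491 gland counts in 52 barcodes, with 12931, 3058, 12005 and 8800 CPM in gland barcodes of the 4 libraries, against 673, 1001, 762 and 726 CPM in other barcodes. Sc4wPfr_227.g25771 had 8621, 2345, 2568 and 2880 CPM in gland barcodes, against 318, 376, 274 and 241 CPM in other barcodes. In contrast to chymotrypsin, the antistasin level of other barcodes varied less between these libraries. Hypostome 2 had the lowest gland level of Sc4wPfr_227.g25773 with its leading barcode, which was rich in chymotrypsin. Without the leading barcodes the order turned, with 14903, 12339, 4855 and 4725 CPM, and the antistasin family sum was 25335, 15938, 6688 and 6715 CPM. A further entry, MSTRG.8427, had 16 gland counts. Reads of these near-identical names could be split between entries by the counting, so levels of single entries are less certain than the family sum.

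The smaller members were uneven over libraries. MSTRG.12981, described as elastase 3B-like, had 42 of its 43 gland counts at 0 h and 1 at 4 h, and 37 of the 43 lay outside the leading barcodes. The chymotrypsinogen B-like entry MSTRG.23660 had 10 gland counts in hypostome 2, 18 at 0 h and 5 at 4 h, and MSTRG.14945 had 8 at 0 h and 6 at 4 h. MSTRG.13182, also chymotrypsinogen B-like, had 1, 12 and 6 in hypostome 1, hypostome 2 and at 0 h, and 0 at 4 h. Of the elastase 3B-like entries MSTRG.599 and Sc4wPfr_391.g24627, the first had 8 gland counts, all at 0 h, and the second 4 at 0 h and 2 at 4 h. Lipases, which split dietary fats, were sparse: the pancreatic lipase-related entry Sc4wPfr_923.g11406 had 4 gland counts in hypostome 2 and 4 at 0 h, and Sc4wPfr_45.2.g19853 had 6, all at 4 h. Of the 33 lipase entries, 11 had any gland count, with 33 counts in all.

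Enzyme transcripts were not confined to gland barcodes. Gland barcodes held 2.70% and 10.98% of all enzyme counts of the hypostome libraries, 10.9% of those at 0 h and 2.23% at 4 h. At least 1 enzyme count was present in 78.5% and 93.3% of the other barcodes of the hypostome libraries, in 95.9% of those at 0 h, 91.4% at 4 h and 18.8% at 12 h. Enzyme entries took 4.24%, 11.1%, 3.98% and 3.68% of counts in gland barcodes of both hypostome libraries, the 0 h and the 4 h library. In other barcodes they took 0.18%, 0.281%, 0.64% and 0.371%, and 0.0579% at 12 h. Barcodes under 200 genes held more than other barcodes in the hypostome libraries, with 0.832% and 1.37%. Their share was 0.97% at 0 h, 0.39% at 4 h and 0.0629% in the 12 h library.

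The ratio of chymotrypsin to antistasin counts varied by library more than by barcode class once the leading barcodes were set aside. In hypostome 1 it was 0.706 (exact conditional binomial 95% interval 0.308 to 1.57) in gland barcodes without the leading one, 0.446 in other barcodes and 0.502 in barcodes under 200 genes. In hypostome 2 it was 1.23 (0.743 to 2.04), against 0.779 in other and 0.687 in the barcodes under 200 genes. At 4 h it was 2.63 (1.67 to 4.26), against 2.55 and 2.69. At 0 h the gland ratio, 3.11 (2.63 to 3.69), was below those of 4.81 (4.54 to 5.09) in other barcodes and 5.44 in the barcodes under 200 genes. The leading barcodes shifted the gland ratio to 18.0 (13.8 to 24.0) in hypostome 2 and to 1.62 (1.45 to 1.82) at 0 h. The part of free RNA, shed into the droplets by other cells, in these counts was not tested.

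Gland and other barcodes were then compared over entries that the rule did not use, on counts summed per library and class. In hypostome 2, 0 h and 4 h, the libraries with at least 5 gland barcodes, 59 of 1223 entries were higher in gland barcodes (4.82%) and 11 lower (0.899%) by the edgeR quasi-likelihood test with library as a block (Benjamini-Hochberg adjusted p under 0.05, 2 residual degrees of freedom). Secreted proteases, mostly of the astacin type, were the best represented of the gene lists among the higher entries, with 17. Of the 59, 55 were higher in each of the 3 libraries, and the 11 lower entries were lower in each. An entry could pass the count filter through 1 class alone, and at 4 h 1 gland count is already 160 CPM. Some higher entries passed only through gland barcodes, so their calls follow in part from the filter. Sc4wPfr_713.g5217, for example, had 2, 5 and 1 gland counts, and 0, 9.56 and 6.83 CPM in other barcodes. The leading barcodes held a median of 73.5% of the gland counts of the 59 higher entries. Without them, and with hypostome 2 kept at its 4 remaining gland barcodes, 4 of 1108 entries passed in edgeR, all among the 70, of which 54 were tested. These were carboxypeptidase A2 and the cytolysin-like MSTRG.21667 (higher), and minicollagen 7 and MSTRG.21226 (lower), each described below.

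Hypostome 2 also carried many calls. With the leading barcodes kept, leaving out this library gave 3 calls among 5060 entries. Leaving out both the leading barcodes and hypostome 2 gave 0 of 4965 in edgeR, with 50 at an unadjusted p under 0.05, and DESeq2 was not run on that set.

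Secreted proteases other than the enzyme entries were the group with the most calls. Of 22 tested, 17 were higher in gland barcodes, against 4.82% of all 1223 entries, and 0 lower. Their median log2 fold change was 2.97, against -0.36 over all entries. The strongest was MSTRG.4653, described like the astacin nas-4 of the roundworm, with 17637, 2908 and 5920 CPM in gland barcodes of hypostome 2, 0 h and 4 h, against 63.4, 79.4 and 28.9 CPM in other barcodes. Its log2 fold change was 6.83 ± 0.58 (SE, 3 libraries, edgeR adjusted p = 8.2e-28). Gland barcodes lay far above other barcodes in each library, but the 313 gland counts came from 10 barcodes, and 24 of them lay outside the leading ones. In hypostome 1, which did not enter the fit, it had 6466 CPM in gland barcodes, all of it in the leading barcode, and 7.39 CPM in other barcodes.

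Carboxypeptidase A2, an enzyme that trims amino acids from the end of peptides, showed the same pattern. Entry Sc4wPfr_540.1.g13228 had 11928, 1485 and 1120 CPM in gland barcodes of hypostome 2, 0 h and 4 h, against 54.3, 104 and 50.6 CPM in other barcodes (log2 fold change 5.10 ± 0.63 SE, edgeR adjusted p = 5.54e-13). Hypostome 2 was far above 0 h and 4 h in gland barcodes, and other barcodes stayed low throughout. Of its 174 gland counts, 28 lay outside the leading barcodes, which left it at 2.91 on the log2 scale (edgeR adjusted p = 0.025, hypostome 2 kept). Of these 28, 23 lay at 0 h, 4 in hypostome 2 and 0 at 4 h, so without the leading barcodes it was not higher at 4 h. Hypostome 1 had 1437 CPM in gland barcodes and 14.8 CPM in other barcodes.

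Further astacin-like entries followed. MSTRG.6905 had 8971, 1702 and 1280 CPM in gland barcodes of the same libraries, against 67.9, 245 and 80.3 CPM in other barcodes (log2 fold change 4.34 ± 0.63 SE, edgeR adjusted p = 2.34e-09). Sc4wPfr_39.g20552 had 8869, 3156 and 1440 CPM, against 109, 371 and 117 CPM in other barcodes (4.15 ± 0.60). It was among the most widely detected, in 24 gland barcodes with 45 counts outside the leading ones. The nas-4-like entries MSTRG.6356, Sc4wPfr_177.1.g6220 and Sc4wPfr_192.g30648 had log2 fold changes of 4.07, 3.77 and 3.76. The entries Sc4wPfr_576.1.g2978 and Sc4wPfr_39.g20553, described like the low choriolytic enzyme, an astacin that softens the egg coat of fish, rose by 3.92 ± 0.62 and 3.60 ± 0.62. The metalloelastase-like entry Sc4wPfr_1100.g15590 rose by 3.97 ± 0.64, the evenest of these over the libraries. It had 3364, 1640 and 2720 CPM in gland barcodes and 131, 269 and 80.8 CPM in other barcodes. Without the leading barcodes the gland levels were 3599, 575 and 0 CPM, since all 17 gland counts at 4 h lay in the leading barcode.

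Not every protease moved alike. The nas-4-like entry Sc4wPfr_177.1.g6228, named after its values were seen, had 253 gland counts at 0 h, 220 of them in the leading barcode, and 33 in hypostome 1, 30 of them in the leading barcode. It had 22 in hypostome 2, 1 of them in the leading barcode, and 0 at 4 h. The leading barcodes of hypostome 2 and 0 h thus differed in this astacin, while both held MSTRG.4653.

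Chitinases and other hydrolases moved with the proteases. Of 8 tested, 5 were higher in gland barcodes, against 4.82% of all 1223 entries, and 0 lower. Their median log2 fold change was 2.96. The chitinase-3-like entry Sc4wPfr_351.g11221 had 17331, 2475 and 2560 CPM in gland barcodes of hypostome 2, 0 h and 4 h, against 149, 651 and 452 CPM in other barcodes (3.35 ± 0.55 SE, edgeR adjusted p = 2.4e-07). It was found in 34 gland barcodes. Its neighbour by name, Sc4wPfr_351.g11220, rose by 3.44, the acidic endochitinase-like Sc4wPfr_766.g13535 by 3.74 ± 0.67, and MSTRG.13036, with 0 gland counts in hypostome 2, by 3.03. Chitinases cut chitin, the polymer of crustacean shells, which Hydra takes in with its prey.

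Protease inhibitors were mixed. Of 10 tested, 3 were higher, against 4.82% of all 1223 entries, and 0 lower. Their median log2 fold change was 0.68. The serine protease inhibitor entry MSTRG.1988/2, the second entry under that identifier, had 2549, 3342 and 320 CPM in gland barcodes of hypostome 2, 0 h and 4 h, against 294, 232 and 96 CPM in other barcodes (2.9995 ± 0.68 SE, edgeR adjusted p = 0.00048). It was high in hypostome 2 and at 0 h and rested at 4 h on 2 counts. The cystatin-like inhibitor Sc4wPfr_201.1.g33299, of a family that blocks cysteine proteases, rose by 2.97 ± 0.87. The four-domain inhibitor Sc4wPfr_1152.g30300 rose by 1.96 ± 0.61 and was highest at 4 h, with 6560 CPM in gland barcodes and 638 CPM in other barcodes.

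The dickkopf calls were of Dlp2. No entry is described as Dlp1, and the rule would have kept such an entry out of this test, so nothing is shown about Dlp1. Of 5 dickkopf and thrombospondin-repeat entries tested, 2 were higher, against 4.82% of all 1223 entries, and 0 lower. Both are described as dickkopf Dlp2, while DESeq2 called 0 of the 5. MSTRG.3546 had 6830, 61.9 and 1920 CPM in gland barcodes of hypostome 2, 0 h and 4 h, against 13.6, 80.1 and 84.8 CPM in other barcodes (4.15 ± 0.81 SE, edgeR adjusted p = 1.67e-05). It was not higher at 0 h, and 79 of its 81 gland counts came from the leading barcodes of hypostome 2 and 4 h. The second, Sc4wPfr_134.g20117, had 3262, 681 and 1920 CPM in gland barcodes, against 45.3, 321 and 548 CPM in other barcodes (2.58 ± 0.71, edgeR adjusted p = 0.00647). It was higher in each library, and 26 of its 67 gland counts lay outside the leading barcodes.

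The other named entries that were higher fell outside these lists. They included a ganglioside GM2 activator, Sc4wPfr_1400.g6659, a lipid-binding protein (4.00 ± 0.76, with 99 of its 117 gland counts in the leading barcode of hypostome 2). MSTRG.7507, described as glutamate decarboxylase, the enzyme that makes GABA, had 32 of 42 gland counts in that barcode (5.69 ± 0.96). The cytolysin-like MSTRG.21667 rose by 4.54 ± 0.80, with 8 counts in the leading barcode of hypostome 1 and 0 in its other barcodes. A Golgi-associated, pathogenesis-related protein-like entry, Sc4wPfr_228.g20685, rose by 4.12 ± 0.67, and a phospholipase C-like barrel domain entry, Sc4wPfr_524.g10737, by 3.76. MSTRG.3311, an uncharacterized protein, was found in more gland barcodes than the other 19 named, 33, with 140 of its 304 gland counts outside the leading barcodes (3.65 ± 0.53). The zebra precursor entry Sc4wPfr_146.g12038 (3.49 ± 0.77) had 33 of 62 outside them. Uncharacterized entries Sc4wPfr_713.g5217 and Sc4wPfr_2017.1.g26848 rose by 4.42 and 3.89.

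**Figure D4:**
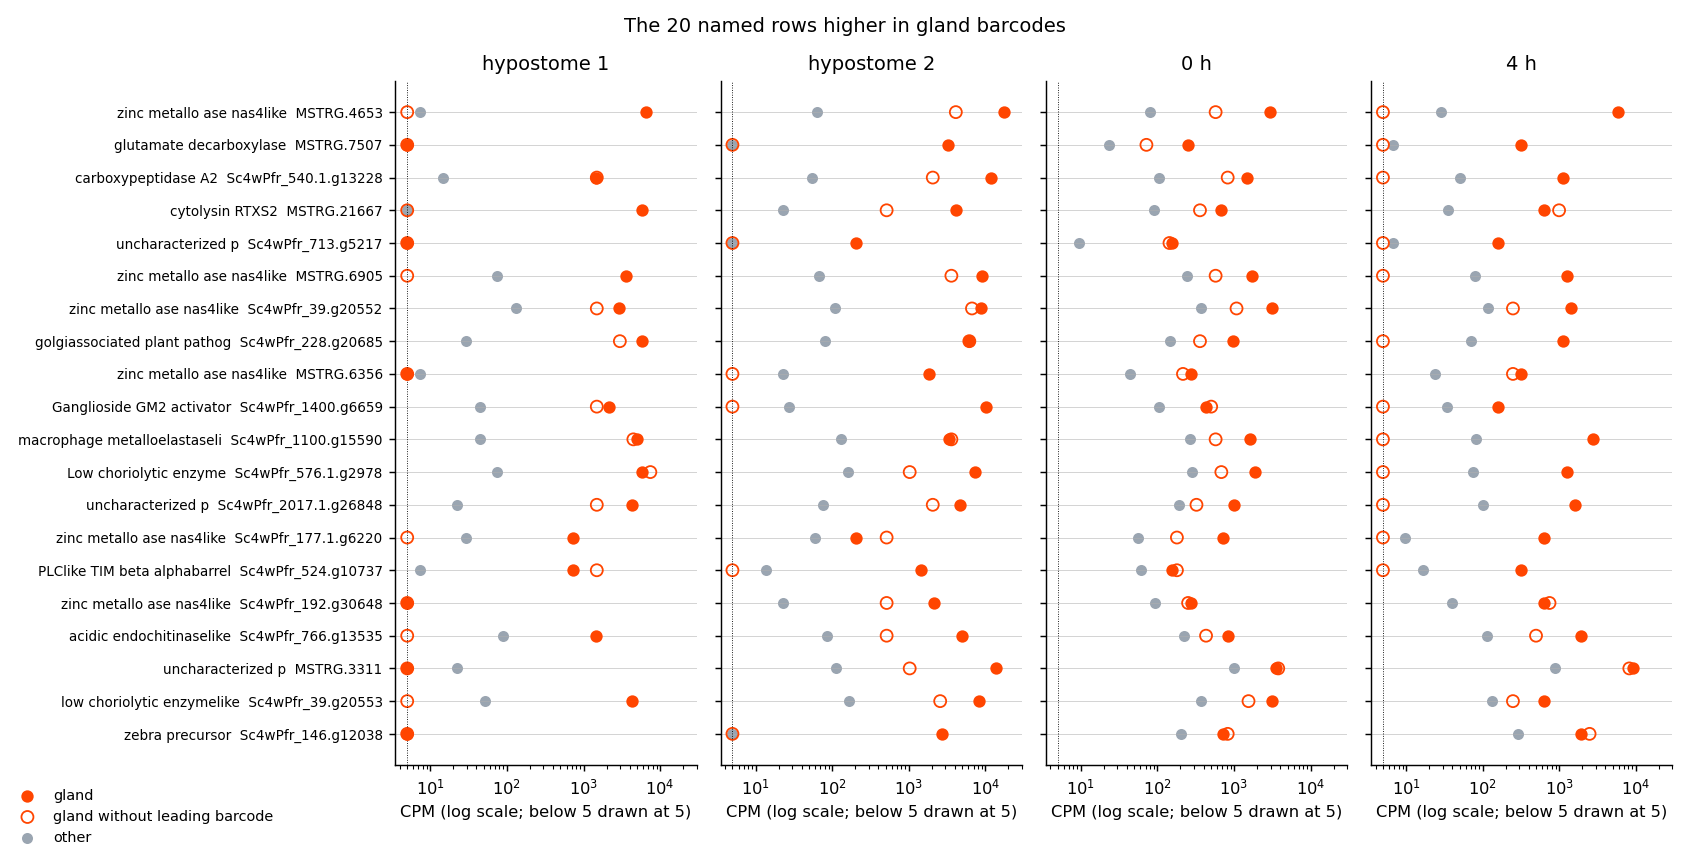
CPM (horizontal axis, log scale, values below 5 drawn at 5) of the 20 named entries that were higher in gland barcodes, 1 panel per library; filled points are all gland barcodes, open circles gland barcodes without the leading one, and grey points other barcodes. At 4 h many open circles sit at the left edge, as for MSTRG.4653, where 37 of 37 gland counts came from the leading barcode, while MSTRG.3311 changed little when that barcode was left out.

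Hypostome 1, with 3 gland barcodes, gave a view outside the fit. Of the 59 higher entries, 39 (66.1%) had a higher CPM in its gland barcodes than in its other barcodes. The other 20 had no gland count there. Of all 1223 tested, 347 had a gland count there, and 295 (24.1% of the 1223) lay above other barcodes. In hypostome 1 a gland count of 1 is already 718 CPM, so this contrast largely shows which entries were detected there. Of the 11 lower entries, 1 had a gland count in hypostome 1 and 0 lay above other barcodes.

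Per barcode, the secreted protease list stayed higher outside the leading barcodes. Without them it took a median of 3.67% and 3.46% of a gland barcode's counts in hypostome 1 and hypostome 2, 1.05% at 0 h and 1.03% at 4 h. In other barcodes the medians were 0.311%, 0.523%, 0.707% and 0.307%. The gap was widest in the hypostome and narrowest at 0 h. In pooled counts the list took 4.17%, 4.88%, 1.46% and 0.796% in gland barcodes without the leading one, against 0.276%, 0.348%, 0.616% and 0.313% in other barcodes. At least 1 count of the list was present in 96.2% of other barcodes at 0 h, so its presence alone did not mark gland barcodes.

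The 11 entries lower in gland barcodes included 2 from the list of the nematocyte lineage, the stinging cells. Of 7 nematocyte entries tested, 0 were higher and 2 lower, against 0.899% lower over all 1223 entries. Their median log2 fold change was -2.71, or -2.15 with 2 entries at 0 gland counts set to the bound that 3 counts at 0 h give. Minicollagen 7 (MSTRG.173), a collagen of the stinging capsule, had 102, 588 and 480 CPM in gland barcodes of hypostome 2, 0 h and 4 h, against 10048, 2312 and 1873 CPM in other barcodes. It fell by 3.21 on the log2 scale (SE 0.59, edgeR adjusted p = 5.27e-06), and 21 of its 23 gland counts lay outside the leading barcodes, which left it at -2.82 on that scale (edgeR adjusted p = 0.025, hypostome 2 kept). The nematoblast-specific entry MSTRG.3021 had 0 gland counts, and at 0 h, where other barcodes had 330 CPM and 3 gland counts would be 92.8 CPM, it was at least 3.56-fold lower (edgeR adjusted p = 0.00928).

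The remaining named entries that were lower were not matched by the nematocyte list, which rests on words in the descriptions. MSTRG.8087, described as a collagen-related 3 precursor of Hydra magnipapillata, fell by 3.57 on the log2 scale. It had 2 gland counts, and 3341 and 1146 CPM in other barcodes of hypostome 1 and hypostome 2. Whether it marks the nematocyte lineage was not tested. The basic proline-rich-like MSTRG.14146 fell by 3.86 on the log2 scale. MSTRG.17355, like the centrosomal protein CEP290, and the uncharacterized Sc4wPfr_268.g25743 fell by 3.08 each. An arrestin domain entry, Sc4wPfr_38.g5843, had 0 gland counts and was at least 4.81-fold lower in hypostome 2. MSTRG.21226, with no description, had 0 gland counts and was at least 6.95-fold lower at 0 h.

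**Figure D5:**
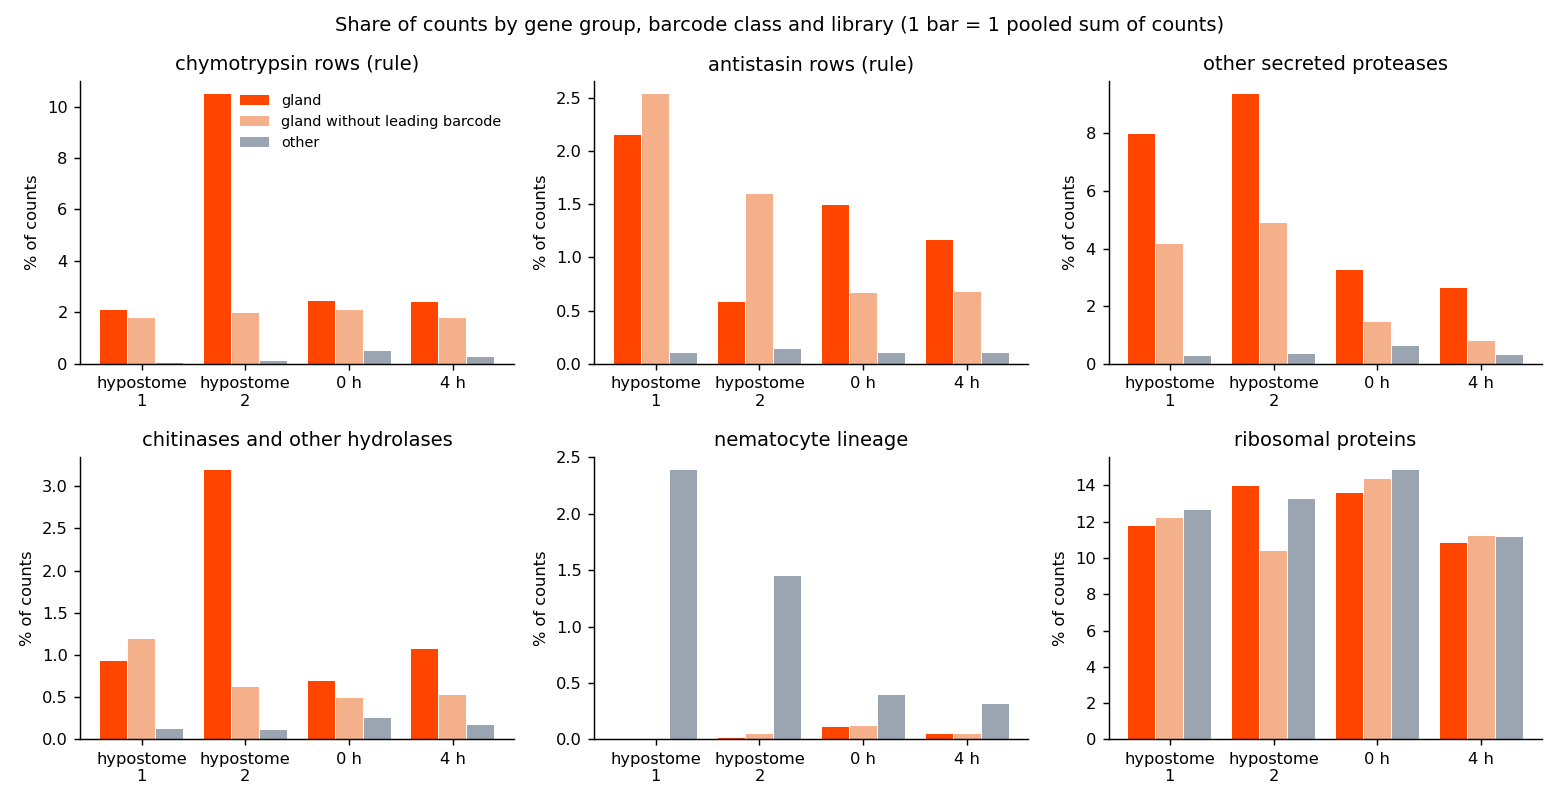
Share of counts (vertical axis, percent) of 6 gene groups in each library with gland barcodes; bars from left to right are all gland barcodes, gland barcodes without the leading one, and other barcodes, each a pooled sum with no replicate. Other secreted proteases took 7.97%, 9.35%, 3.26% and 2.64% of gland counts in both hypostome libraries, the 0 h and the 4 h library, nematocyte entries stayed at or below 0.108%, and ribosomal proteins lay between 10.8% and 13.9%.

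Apart from the nematocyte entries, the groups that mark other cells or general activity had no call. Of 34 entries of the secretory pathway, 102 ribosomal proteins, 19 respiratory chain and ATP synthase entries, 17 endodermal epithelial, 16 epitheliomuscular and 14 stress entries tested, 0 passed in either direction in edgeR, against 5.72% of all entries. Over these 202 entries 2 had an unadjusted p under 0.05 and DESeq2 called 0. Their median log2 fold changes were -0.34, -0.21, -0.18, -0.70, -0.90 and -0.27. Mucins and lectins, products of mucous gland cells, gave 0 of 6 (median -1.32, with 2 at an unadjusted p under 0.05 and 0 called by DESeq2), neurons 0 of 1, and the stem cell list had no entry with enough counts. Neuron markers took 0.144%, 0.0306%, 0.0217% and 0.016% of counts in gland barcodes of both hypostome libraries, the 0 h and the 4 h library, against 1.07%, 0.317%, 0.0627% and 0.0497% in other barcodes, and rested on 2, 3, 7 and 1 gland counts. Endodermal markers, such as cathepsins and ferritins, took 1.01%, 0.642%, 1.72% and 0.72% of counts in gland barcodes of both hypostome libraries, the 0 h and the 4 h library, against 1.30%, 1.38%, 1.76% and 1.18% in other barcodes. Nematocyte entries took 0%, 0.0102%, 0.108% and 0.048% in gland barcodes, against 2.39%, 1.45%, 0.397% and 0.318% in other barcodes.

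The gland markers and the secreted proteases stood together in the leading barcodes, where the protease list held 822 counts in hypostome 2, 649 at 0 h, 133 at 4 h and 83 in hypostome 1. High enzyme shares were not confined to the leading barcodes, since single further barcodes reached 5.38% in hypostome 1, 6.94% in hypostome 2 and 8.46% at 0 h. The label of gland cell is less sure for barcodes near the limits. Mucins and lectins took 2.59% of gland counts in hypostome 1, against 0.306% of those of its other barcodes, and 0.0918% in hypostome 2, against 0.225%. These shares rest on 36 and 9 gland counts. The leading barcode of hypostome 2 had 0 of them, and without the leading barcodes the shares were 2.09% in hypostome 1 and 0.463% in hypostome 2, so gland barcodes of hypostome 2 then lay above its other barcodes. Of the mucin and lectin counts in hypostome 1, 22 were in the leading barcode, and 13 of the 279 counts of the second barcode of hypostome 1 were of that list.

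Hypostome and regenerating gland barcodes were compared to ask whether gland expression differs between intact and regrowing heads. The entries of the rule, which chose these barcodes, were kept in the comparison of gland barcodes alone. Only hypostome 2 had enough gland barcodes, so the hypostome is 1 library, assumed to vary like the others, and the tests show how this library differs and not how the tissues differ. With hypostome 2 set against 0 h and 4 h, 0 of 198 entries passed in edgeR (0%), with 29 at an unadjusted p under 0.05, and DESeq2 called 1. The gap between gland and other barcodes was larger in hypostome 2 than in the regenerating libraries for 22 of 1223 entries (1.8%) and smaller for 0 (edgeR interaction test, 1 residual degree of freedom). They included both dickkopf Dlp2 entries, a pair of chitinases and several astacins. Between 85.1% and 100% of the gland counts of these entries in hypostome 2 came from its leading barcode, with a median of 98.0%, and 10 of the 22 had 0 gland counts in hypostome 1. The test compares 1 barcode in the main with the regenerating libraries, and scaling by totals instead of TMM gave 28 with a larger gap and 6 with a smaller one.

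The 4 h library was set beside the 0 h library without a test, since each is 1 library. Of 178 entries with at least 30 gland counts over both, 2 were at least 4-fold higher at 4 h (1.12%) and 6 at least 4-fold lower (3.37%). Together these were 4.49% of the entries. Scaled by totals, the median log2 ratio was -0.28, and TMM factors moved it to -0.95, with 0 entries higher and 23 lower. The four-domain inhibitor Sc4wPfr_1152.g30300 had 41 gland counts at each time, 6560 CPM at 4 h against 1269 CPM at 0 h, a ratio of 5.17 (exact conditional binomial 95% interval 3.27 to 8.17). At 4 h 31 of the 41 counts were in the leading barcode. MSTRG.10393, described like the CHK1 checkpoint kinase, had 36480 CPM at 4 h and 8354 CPM at 0 h, a ratio of 4.37 (3.64 to 5.23). Without the leading barcodes its counts were 38 and 265, and the log2 ratio became -0.012.

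The 6 entries at least 4-fold lower at 4 h included proteases and an inhibitor. Sc4wPfr_177.1.g6228 had no gland count at 4 h against 253 at 0 h, which makes it at least 16.3-fold lower. Sc4wPfr_262.2.g17796, a nas-13-like astacin, had 0 and 73, at least 4.71-fold lower. In other barcodes these were 58.3 CPM at 4 h against 366 CPM at 0 h, and 15.7 against 82.3 CPM, so they were lower at 4 h in both classes. The inhibitor MSTRG.1988/2 had 2 counts at 4 h and 108 at 0 h, 10.4-fold lower from the raw counts (interval 2.82 to 87.3). The choriolytic enzyme-like Sc4wPfr_39.g20553 had 4 and 102, 4.93-fold lower (1.87 to 18.4).

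Other proteases, named after their values were seen, had ratios above 1 that did not reach 4-fold. The nas-13-like Sc4wPfr_589.g6008 was 2.87-fold higher at 4 h (1.42 to 5.60) and the nas-4-like MSTRG.4653 2.04-fold (1.35 to 3.01). The intervals of the nas-4-like Sc4wPfr_1514.2.g69 (1.72, 0.933 to 3.03) and the metalloelastase-like Sc4wPfr_1100.g15590 (1.66, 0.9 to 2.91) included 1. At 4 h 1 of the 15 counts of Sc4wPfr_589.g6008 and 0 of the 37 of MSTRG.4653 lay outside the leading barcode.

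Without the leading barcodes the counts at 0 h were 33 for Sc4wPfr_177.1.g6228, 13 for Sc4wPfr_262.2.g17796, 20 for MSTRG.1988/2 and 43 for Sc4wPfr_39.g20553, so most of these differences lay between 2 barcodes. The ribosomal protein S8 entry Sc4wPfr_95.2.g19513, with 3 and 76 counts (4.90-fold lower, 1.61 to 24.3), and the cathepsin L1-like MSTRG.9153, an endodermal protease, with 3 and 66 (4.25-fold lower, 1.39 to 21.2), did not rest on the leading barcode at 0 h, where 70 and 66 counts remained. In other barcodes both were lower at 4 h as well, 1.62-fold and 2.29-fold, and these values lie within the gland intervals. Without both leading barcodes 0 entries were at least 4-fold higher and 3 at least 4-fold lower of 145.

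At 12 h there was no gland barcode among 64. Its other barcodes had 17 chymotrypsin and 9 antistasin counts, 308 and 163 CPM, and its barcodes under 200 genes 328 and 51.1 CPM. At 0 h other barcodes had 5052 CPM of chymotrypsin and 1051 CPM of antistasin. Chymotrypsin and antistasin levels were thus lower at 12 h than at 0 h in other barcodes and in barcodes under 200 genes, which had 7938 and 1458 CPM at 0 h. Markers of other cells were also lower in other barcodes at 12 h. Endodermal entries took 0.103% of counts, against 1.76% at 0 h, epitheliomuscular entries 0.139% against 0.842%, and nematocyte entries 0.047% against 0.397%. Ribosomal proteins took 9.24% against 14.8%. Fewer gland cells, less RNA per gland cell and a difference of the whole library cannot be told apart in these sums.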

How the data were processed

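Raw whole-number counts per entry and barcode were deposited for 5 libraries, with no normalization by the authors per the file headers. Kallisto 0.46.1 is named in the submitters' processing notes. The build, the annotation and whether counts are molecules or reads are not given in the sources used here. The tables hold 46156 entries, and 1 further row that names no gene held 0 counts (0% of all). Entry names are the tables' descriptions, and 0 identifiers occurred in the RefSeq gene table. Repeated identifiers were kept apart, with a slash and a number. No barcodes were removed as doublets (scrublet, scanpy 1.11.5, expected rate 0.06).

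Counts were summed per library over gland and over other barcodes. Entries of the rule were removed from the fits and their library sizes. edgeR 4.0.16 (R 4.3.3) was used with TMM, filterByExpr, the quasi-likelihood test and Benjamini-Hochberg adjustment at 0.05, in libraries with at least 5 gland barcodes, with library as a block because both classes come from the same library. Fold changes are shrunk by edgeR's prior count. The SE was derived from the fold change and its F statistic. The fit was also run on simulated counts with known fold changes. These counts had no leading barcode, so that run does not bear on calls that rest on 1 barcode. Binomial intervals are exact (scipy 1.17.1). For 4 h over 0 h, counts under 3 were raised to 3.

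The barcodes and gene lists were chosen with earlier results of these data known. List patterns match words in the descriptions and were adjusted to the tables' spelling. Entries are named by rule: past 0.05 and changed alike in every fitted library, the 20 largest up and 8 down, up to 4 per list past 0.05, the 12 enzyme entries with most gland counts (here also Sc4wPfr_45.2.g19853, tied with the last), the 5 largest interactions, and the 6 largest time ratios each way past 4-fold. Alternatives were DESeq2 1.42.0, library totals, other filters, other limits and forms of the rule, thinning, no block, and leaving out libraries. Leaving out each leading barcode, with hypostome 2 lost or kept at 4 gland barcodes, was added after seeing the data.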

Additional observations from a re-analysis of the deposited data

Results flagged for a closer look

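The gap between gland and other barcodes was larger in hypostome 2 than in the 0 h and 4 h libraries for 22 entries by the edgeR interaction test. The hypostome was 1 library in this fit, assumed to vary like the others, so a difference between the tissues was not shown. The largest were MSTRG.7507, described as glutamate decarboxylase, with an interaction log2 fold change of 10.07, the zebra precursor Sc4wPfr_146.g12038 with 7.13, and the dickkopf Dlp2 entry MSTRG.3546 with 6.61. The GM2 activator Sc4wPfr_1400.g6659 had 6.40 and the nas-4-like astacin Sc4wPfr_312.g4811 had 6.30. These 5 entries had 32, 27, 67, 99 and 59 counts in the leading barcode of hypostome 2, which were all their gland counts in that library. In hypostome 1 they had 0, 0, 0, 3 and 0 gland counts. Whether this is a property of hypostome gland cells or of 1 barcode was not tested.

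Enzyme counts also lay in the deposited barcodes under 200 genes, which the comparisons leave out. Enzyme entries took 0.832% and 1.37% of the counts of such barcodes in the hypostome libraries, against 0.18% and 0.281% in the other barcodes with at least 200 genes. At 0 h they took 0.97%, against 0.64%. The 4 h values were 0.39% against 0.371%, and the 12 h values 0.0629% against 0.0579%. No control library bears on these shares.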

How the results depend on the processing

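The calls between gland and other barcodes depended on few counts. The 70 calls became 69 with DESeq2, 73 with library totals, 65 with no gene minimum and 71 without called doublets, with 61, 69, 53 and 68 of the 70 kept. They became 46 with no replicate block, and pairing the classes by library raised the count. They became 11 with no filter, 12 with a filter of 20 CPM in 2 profiles, 8 without MSTRG.22171, 4 with barcodes thinned to 200 counts, 1 with a share of at least 1%, 4 without the leading barcodes where hypostome 2 was kept with 4 gland barcodes, and 0 where hypostome 2 was lost as well. Leaving out a library gave between 3 and 71 calls, the lowest without hypostome 2. The fits with a share of at least 5%, at least 20 enzyme counts, at least 500 genes, the rule without antistasin or without lipase, and libraries with at least 10 gland barcodes were not run, because too few libraries had enough gland barcodes. Over these settings 2 named entries turned negative without both the leading barcodes and hypostome 2, Sc4wPfr_2017.1.g26848 to -0.11 and MSTRG.3546 to -1.001, and the 4 h over 0 h log2 ratio of MSTRG.10393 became -0.012 without the leading barcodes. With hypostome 2 kept, Sc4wPfr_2017.1.g26848 was at 1.26 and MSTRG.3546 did not pass the count filter. The cause of these changes was not tested, except that the sets without leading barcodes hold fewer counts, and the one without hypostome 2 a library less, by construction.

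The tissue comparison of 0 calls became 1 with DESeq2, 9 with library totals and 62 without MSTRG.22171. The 22 interactions became 13 with DESeq2, 34 with library totals, 68 without MSTRG.22171, 1 with no gene minimum, and 0 with no filter or with thinning. Leaving out a library or the leading barcodes left neither fit enough libraries. The 8 entries at least 4-fold different between 4 h and 0 h became 23 with TMM factors, 4 with at least 100 counts, 52 at 2-fold, 16 with at least 500 genes, 0 with thinning and 3 without the leading barcodes. The difference in mean gland share kept its direction under the 10 forms of the rule tried, between 0.345 and 2.31 percentage points. Under the rule as given it lay between 1.46 and 2.74 points when a library was left out. The 12 h library had 0 gland barcodes in every form and was left out only under the rule as given. With thinning the shares were 4.55% and 7.74% in the hypostome libraries, 12.6% at 0 h and 2.30% at 4 h. The direction with thinning thus rests on the 12 h library.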
